A study of Mus musculus with 9 samples.

Results

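The 39 genes described here are general markers of macrophages, monocytes and other myeloid leukocytes, measured in mouse liver by RNA sequencing. They were chosen by name, outside the identity genes of Kupffer cells (the resident macrophages of liver), and make up 39 of the 45513 genes counted. Livers came from C57BL/6 mice in 3 groups of 3: high fat diet with B-LGND2, high fat diet with vehicle, and normal diet with vehicle, each for 9 weeks. The study's title names an estrogen receptor beta ligand; the label B-LGND2 is a code name, and its dose, route and vehicle, the diets' composition, and the sex and age of the mice are not stated in the labels. Each library is whole liver from 1 mouse, as far as the label of 3 samples per group states, so the p-values rest on the spread between those samples alone.

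Macrophages are phagocytes that sample their surroundings through surface receptors, engulf particles and dead cells, and digest them in lysosomes. The growth factor receptor encoded by Csf1r keeps most of them alive, and the transcription factor encoded by Spi1, PU.1, sets up the myeloid programme. Fc receptors bind antibody-coated particles and signal through small adaptor proteins that carry an immunoreceptor tyrosine-based activation motif (ITAM), and the phagocyte NADPH oxidase makes superoxide at the membrane of the engulfed particle. In healthy liver most such cells are Kupffer cells in the sinusoids, while monocytes come in from the blood. Some of the genes, such as Ptprc, Coro1a, Cd52 and Cd53, are also expressed by lymphocytes. In whole tissue, more cells of a type and more RNA per cell cannot be told apart.

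Library totals ran from 5778978 to 10322972 counts, and both ends of that range were B-LGND2 libraries. The 39 genes took 0.0593% to 0.0948% of the counts in B-LGND2 livers, 0.0412% to 0.0487% in high fat vehicle livers and 0.0399% to 0.0430% in normal diet livers. Genes of ribosomal RNA took 4.31% to 6.19% in B-LGND2 livers, against 0.901% to 1.44% in high fat vehicle livers and 3.16% to 3.75% in normal diet livers. Levels of tested genes, as log2 deviations from each gene's mean over the 9 libraries, were correlated with GC content and length of transcripts. In replicate 1 of the B-LGND2 group they rose with GC content (Spearman 0.501 across genes, at most 0.0808 in the other 8 libraries). The GC correlation was above 0 in all 3 B-LGND2 livers (0.501, 0.0808 and 0.0454) and below 0 in all 6 vehicle livers. It was -0.0979, -0.0718 and -0.0271 in high fat vehicle livers, and -0.151, -0.2495 and -0.186 in normal diet livers. In replicate 3 of the normal diet group levels fell with length (Spearman -0.504, the lowest of the 9 libraries). The length correlation also differed between the high fat groups. It was 0.322, 0.359 and 0.299 in high fat vehicle livers, against -0.241, 0.0827 and 0.0376 in B-LGND2 livers. The other 2 normal diet livers were at 0.204 and -0.161. Normal diet replicate 1 had 12.7% of its counts in mitochondrial genes, against 3.69% to 6.12% in the other 8 libraries. The tested genes of the list have shorter transcripts than tested genes at large (median 2272 against 3181 bases). Their GC content is higher (median 51.72% against 49.73%). The part of these library differences in the results was not tested beyond a fit with length and GC corrections, in which 20 of the 39 genes rose with B-LGND2 and none fell, and which called 7.56% of all genes, against 5.63% without the corrections.

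With B-LGND2 on the high fat diet, 17 of the 39 genes rose against vehicle on the same diet and none fell, where 3.07% of all 12102 tested genes rose and 2.56% fell (edgeR's quasi-likelihood test, Benjamini-Hochberg adjusted p under 0.05 over all tested genes). The 17 were the surface receptors Csf1r, Cd14, Sirpa and Adgre1, the Fc receptor genes Fcgr1, Fcgr3 and Fcgr4 with the adaptors Fcer1g and Tyrobp, the NADPH oxidase subunits Ncf1, Ncf4, Cyba and Cybb, the lysosomal Laptm5 and Lyz2, the transcription factor Spi1, and Cd52. Their fold changes ran from 2.11 (Sirpa) to 5.45 (Fcgr4). The summed level of the 39 genes was 709.4, 707.0 and 912.1 CPM (counts scaled to library size, per 1e+06) in B-LGND2 livers, against 401.1, 375.5 and 436.8 CPM in high fat vehicle livers and 412.7, 396.7 and 483.0 CPM in normal diet livers. The B-LGND2 livers were the highest 3 of the 9, and the vehicle groups overlapped each other.

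Of the 39 genes, 32 had enough counts to be tested, and 31 of these had a log2 fold change above 0, against 49.7% of all tested genes. The median log2 fold change of the 32 was 1.41, and that of all tested genes was -0.00307. In 27 of the 32 every B-LGND2 liver lay above every high fat vehicle liver, against 16.4% of all tested genes. Ncf4 passed the filter on low counts only through the B-LGND2 libraries, where it is high, so its presence in these counts follows partly from the filter; 16 genes rose without it. Cx3cr1, too, would not pass without those libraries. With no filter all 39 could be tested, and 19 rose, Lgals3 and Clec7a being added, where 6.25% of all genes were called. Leaving out 1 library changed the number that rose: 5, 4 and 10 genes did so when high fat vehicle replicate 1, 2 or 3 was dropped, and 10, 19 and 10 when B-LGND2 replicate 1, 2 or 3 was dropped, with 0.984%, 0.801%, 1.49%, 1.08%, 5.6% and 3.39% of all genes called in those fits. Fcer1g, Fcgr4 and Laptm5 rose in all of these and in every other alternative run.

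**Figure D1:**
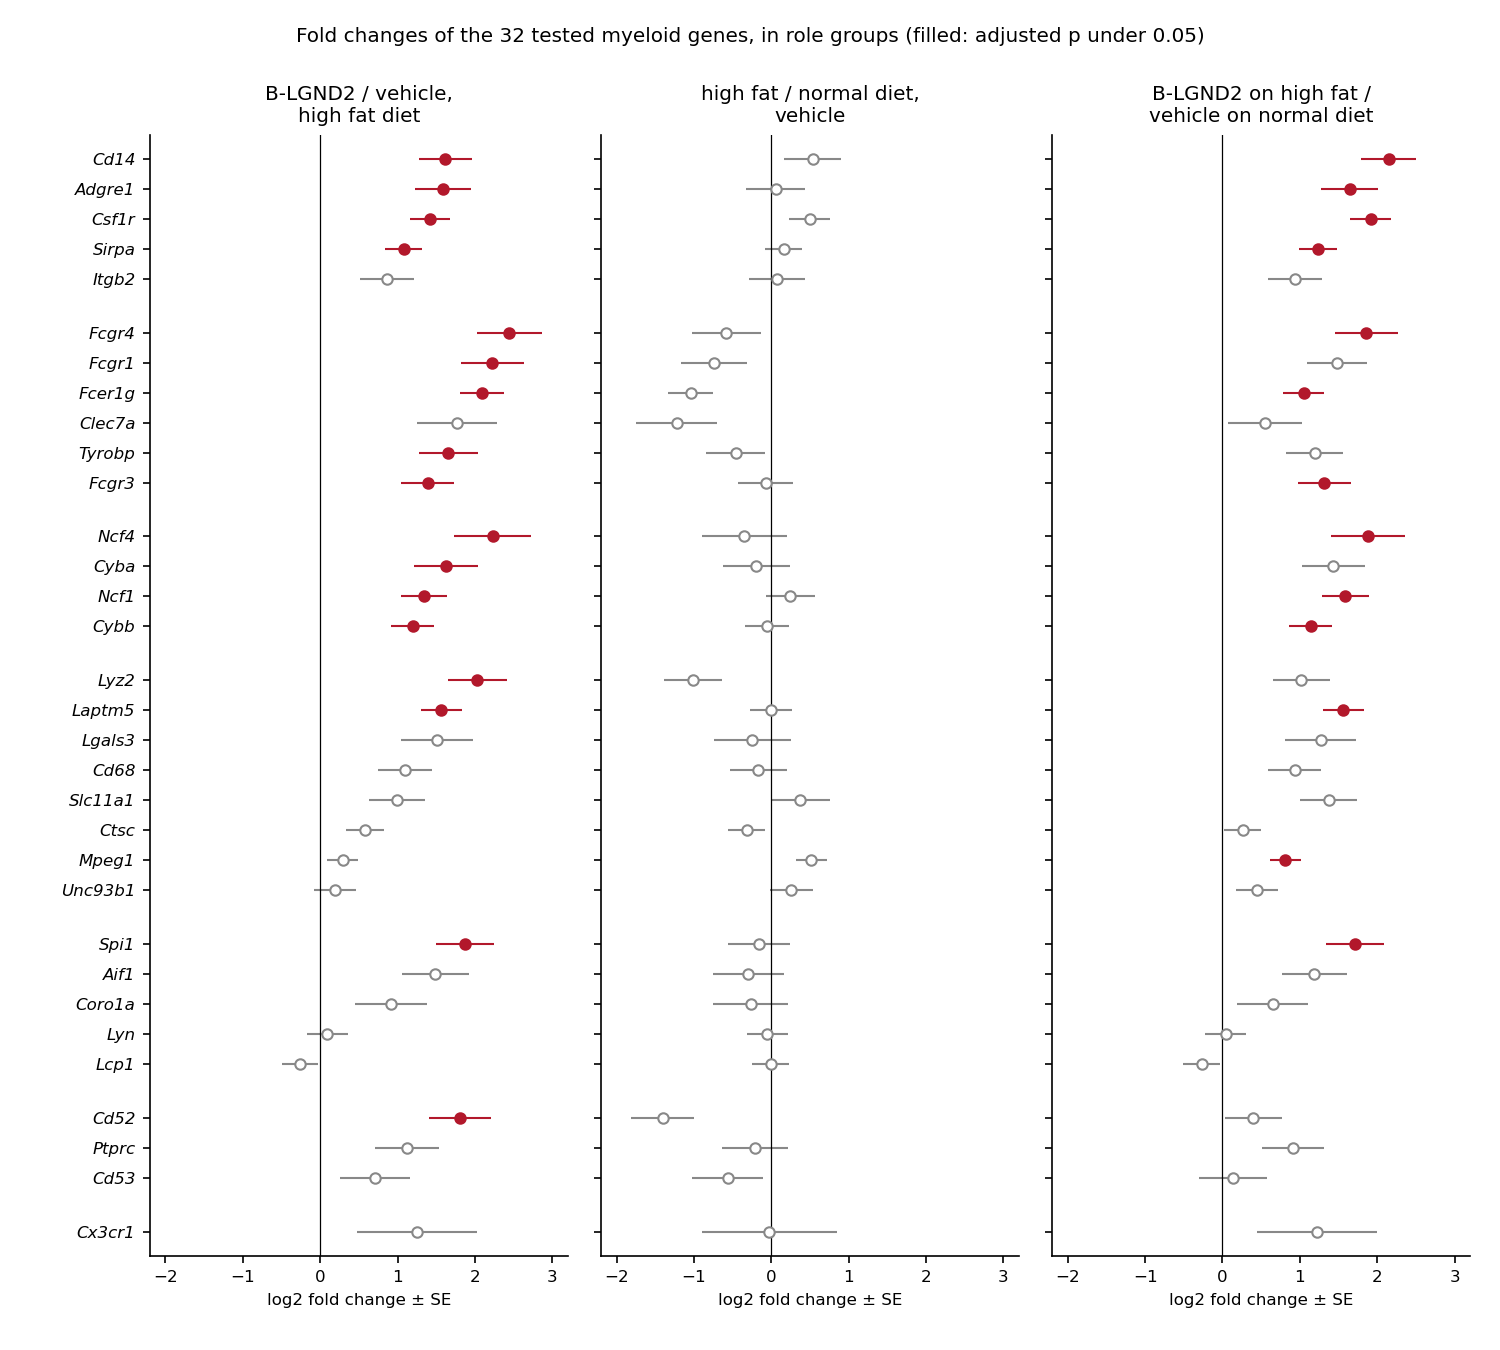
Log2 fold change of the 32 tested genes for high fat B-LGND2 against high fat vehicle livers (left), high fat against normal diet livers under vehicle (middle), and high fat B-LGND2 against normal diet livers (right); bars are standard errors and filled points passed an adjusted p of 0.05. In the left panel 31 of 32 points lie right of 0, in the middle panel 9 of 32, with no filled point.

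Of 6 surface receptors and adhesion molecules 4 rose: Csf1r, Cd14, Sirpa and Adgre1. Itgb2 did not pass the test, and Itgam had too few counts. Csf1r (chr18:61100598-61132149, plus strand) encodes the receptor of the macrophage growth factors CSF1 and interleukin 34. It had 66.2, 49.3 and 79.1 CPM in B-LGND2 livers, against 19.3, 24.2 and 29.0 CPM in high fat vehicle livers and 21.7, 13.2 and 16.6 CPM in normal diet livers. Every B-LGND2 liver was above every vehicle liver of either diet, and Csf1r rose with B-LGND2 on the high fat diet (log2 fold change 1.42, SE 0.26, edgeR adjusted p = 0.00797). Its exons share 873 bases with Hmgxb3 on the other strand, and since the strand setting of the counting is not given, reads of the pair cannot be told apart there; Hmgxb3 had 92, 82 and 39 counts in B-LGND2 livers, against 74, 123 and 104 in high fat vehicle livers.

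Cd14 (chr18:36725067-36726798, minus strand) encodes a co-receptor that hands bacterial lipopolysaccharide to Toll-like receptors. Its levels were 12.1, 14.1 and 12.8 CPM in B-LGND2 livers, against 5.28, 2.26 and 5.16 CPM in high fat vehicle livers and 3.59, 2.98 and 2.21 CPM in normal diet livers. The B-LGND2 livers lay within a narrow band above the other 6, and the rise against high fat vehicle passed the test (log2 fold change 1.62, SE 0.34, edgeR adjusted p = 0.0161). Sirpa (chr2:129592835-129632228, plus strand) encodes the inhibitory receptor for the CD47 protein that healthy cells show to phagocytes. It measured 41.9, 42.5 and 45.1 CPM in B-LGND2 livers, against 18.1, 16.1 and 27.0 CPM in high fat vehicle livers and 16.8, 21 and 17.1 CPM in normal diet livers. It rose with the smallest fold of the 17 genes and with no overlap between groups (log2 fold change 1.08, SE 0.24, edgeR adjusted p = 0.0199). Adgre1 (chr17:57358691-57483527, plus strand), whose protein is the standard surface antigen of mouse tissue macrophages, reached 6.95, 9.71 and 17.6 CPM in B-LGND2 livers, against 3.63, 3.91 and 3.76 CPM in high fat vehicle livers and 4.37, 3.47 and 3.04 CPM in normal diet livers. The 3 B-LGND2 livers were the highest but spread widely, replicate 3 being above the other 2, while the 6 vehicle livers lay between 3.04 and 4.37 CPM (log2 fold change 1.59, SE 0.36, edgeR adjusted p = 0.0220). Itgb2, the shared beta chain of the leukocyte integrins, had a log2 fold change of 0.87 (edgeR adjusted p = 0.142) with B-LGND2 and groups that did not overlap.

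Fc receptors and their signalling partners had the highest median of the role groups: 5 of 7 rose, 6 were tested, and their median log2 fold change was 1.93. Fcer1g (chr1:171229572-171234365, minus strand) encodes the common gamma chain, the ITAM adaptor that the activating Fc receptors need for surface display and signalling. It had 21.4, 20.3 and 24.3 CPM in B-LGND2 livers, against 4.62, 4.06 and 6.69 CPM in high fat vehicle livers and 8.42, 10.1 and 13.3 CPM in normal diet livers. The B-LGND2 livers were the highest 3 and the high fat vehicle livers the lowest 3, and among the 39 genes Fcer1g had the smallest adjusted p (log2 fold change 2.09, SE 0.28, edgeR adjusted p = 0.00121). Fcgr4 (chr1:171018920-171029761, plus strand), an activating receptor for IgG, was at 10.4, 8.68 and 26.5 CPM in B-LGND2 livers, against 2.47, 2.71 and 3.07 CPM in high fat vehicle livers and 5.15, 2.81 and 4.43 CPM in normal diet livers. All B-LGND2 livers stood above all others, replicate 3 well above the other 2, and this was the largest fold change of the 32 tested genes (log2 fold change 2.45, SE 0.42, edgeR adjusted p = 0.00598).

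Fcgr1 (chr3:96282909-96293969, minus strand) encodes the high-affinity IgG receptor. It was measured at 9.73, 8.68 and 12.3 CPM in B-LGND2 livers, against 0.825, 1.96 and 3.62 CPM in high fat vehicle livers and 3.90, 3.14 and 3.87 CPM in normal diet livers. The lowest value, in high fat vehicle replicate 1, rests on 5 counts, and no B-LGND2 liver overlapped a vehicle liver (log2 fold change 2.23, SE 0.41, edgeR adjusted p = 0.00829). Fcgr3 (chr1:171051174-171064935, minus strand), a low-affinity activating IgG receptor, had 20.6, 14.3 and 20.6 CPM in B-LGND2 livers, against 7.26, 5.41 and 8.503 CPM in high fat vehicle livers and 6.24, 4.13 and 11.8 CPM in normal diet livers. Its groups did not overlap either (log2 fold change 1.39, SE 0.34, edgeR adjusted p = 0.0298). Tyrobp, the adaptor DAP12 that carries the signals of Trem2 and related receptors, rose as well (log2 fold change 1.65, SE 0.38, edgeR adjusted p = 0.0231). Clec7a, the beta-glucan receptor Dectin-1, had a log2 fold change of 1.77 (edgeR adjusted p = 0.0549), on the other side of the threshold. Fcgr2b, the inhibitory IgG receptor and a paralog outside the list, had a log2 fold change of 0.38 (edgeR adjusted p = 0.366) with B-LGND2; the difference between it and the activating receptors was not tested.

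**Figure D2:**
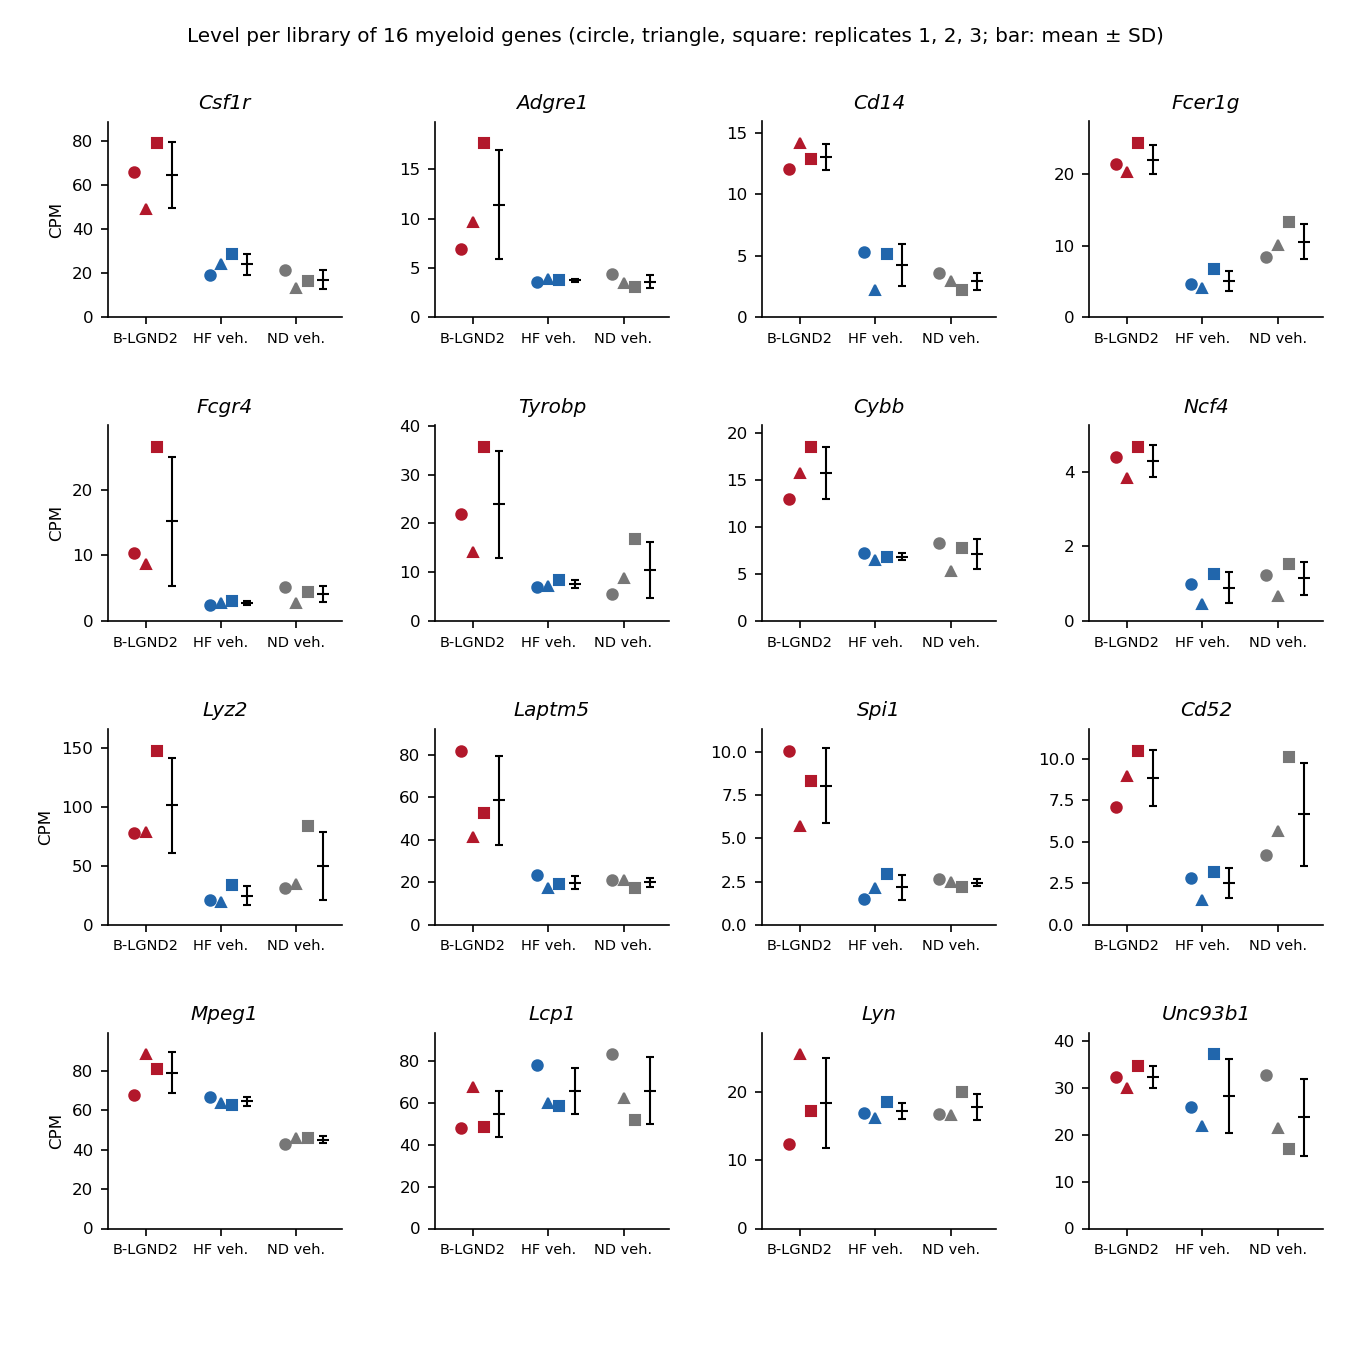
Level in CPM (vertical axes, each from 0) of individual genes in each of the 9 livers, by group: B-LGND2 on high fat diet, vehicle on high fat diet, vehicle on normal diet; points are livers, and lines show the mean and SD (n = 3). In the Csf1r, Fcer1g and Fcgr4 panels all B-LGND2 points lie above all others, while Mpeg1 is highest with B-LGND2, followed by high fat vehicle and then normal diet.

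Sequence upstream of the start, within 250 bases before the RefSeq transcription start (GRCm38.p6) and written 5′ to 3′ on the gene's strand, is shown for Fcer1g, Laptm5, Fcgr4 and Fcgr1, which after Csf1r is set aside have the smallest p in the comparison of B-LGND2 with vehicle. Bases that lie inside the GENCODE M21 gene, whose start is further upstream for some, are left out. Capitals mark the purine-rich ETS motif GAGGAA that PU.1 is known to bind, or its longer form GAGGAAGT, which contains it, and the TATAAA box. On the opposite strand the ETS motifs read TTCCTC and ACTTCCTC.
Fcer1g chr1:171234366-171234599, minus strand: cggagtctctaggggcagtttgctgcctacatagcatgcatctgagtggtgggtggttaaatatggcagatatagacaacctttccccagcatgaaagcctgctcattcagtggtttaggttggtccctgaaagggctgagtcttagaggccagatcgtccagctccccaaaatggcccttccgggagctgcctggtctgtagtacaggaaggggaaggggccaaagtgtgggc
Laptm5 chr4:130913066-130913124, plus strand: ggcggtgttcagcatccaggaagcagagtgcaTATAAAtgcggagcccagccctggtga
Fcgr4 chr1:171018676-171018919, plus strand: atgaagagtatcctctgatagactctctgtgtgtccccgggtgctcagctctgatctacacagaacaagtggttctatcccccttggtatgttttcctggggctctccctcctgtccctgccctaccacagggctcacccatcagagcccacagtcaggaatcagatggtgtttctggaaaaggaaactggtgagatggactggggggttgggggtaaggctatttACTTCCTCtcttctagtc
Fcgr1 chr3:96293970-96294219, minus strand: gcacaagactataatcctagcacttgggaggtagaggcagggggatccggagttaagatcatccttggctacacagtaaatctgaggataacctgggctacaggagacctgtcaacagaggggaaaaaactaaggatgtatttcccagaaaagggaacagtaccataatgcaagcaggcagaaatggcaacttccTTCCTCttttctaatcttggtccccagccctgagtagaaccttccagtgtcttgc

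The Laptm5 sequence held TATAAA 27 bases before the GENCODE start, and a GAGGAA match on the opposite strand lay within the gene as GENCODE draws it, 38 bases before the RefSeq start. In Fcgr4 the longer motif began 18 bases before the GENCODE start, and in Fcgr1 GAGGAA began 55 bases before it, both on the opposite strand. The Fcer1g window held none of the motifs. RefSeq promoters were given for 28 of the 39 genes, in 35 windows of 250 bases before the RefSeq start. GAGGAA on either strand was in 17 of the 35 (48.6%), and in 23.3% of all 32851 windows of the same length. GAGGAAGT was in 4 (11.4%), against 2.44% of all, and TATAAA on the gene's strand in 1 (2.86%), against 7.59%. These are matches of letters in a window, not measured binding.

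All 4 listed subunits of the phagocyte NADPH oxidase rose with B-LGND2, with Ncf4 under the reservation given for the filter. Cybb and Cyba encode the membrane pair that carries electrons, and Ncf1 and Ncf4 encode cytosolic subunits that join it on activation. Ncf1 (chr5:134220053-134229625, minus strand) had 12.98, 11.6 and 16.5 CPM in B-LGND2 livers, against 6.27, 3.61 and 6.27 CPM in high fat vehicle livers and 4.37, 4.96 and 4.29 CPM in normal diet livers. The B-LGND2 livers were the highest 3 (log2 fold change 1.34, SE 0.30, edgeR adjusted p = 0.0206). Its exons share 408 bases with Gtf2ird2 on the opposite strand, where reads of the pair cannot be told apart. Gtf2ird2 had 112, 103 and 89 counts in B-LGND2 livers, against 55, 74 and 63 in high fat vehicle livers, and the part of shared reads in the rise of Ncf1 was not tested. Cybb (chrX:9435252-9487771, minus strand) was at 12.98, 15.7 and 18.5 CPM in B-LGND2 livers, against 7.26, 6.47 and 6.83 CPM in high fat vehicle livers and 8.27, 5.29 and 7.75 CPM in normal diet livers. It rose without overlap between groups (log2 fold change 1.20, SE 0.28, edgeR adjusted p = 0.0232). Ncf4 (chr15:78244801-78262580, plus strand) was low throughout, with 38, 26 and 28 counts in B-LGND2 livers, against 6, 3 and 9 in high fat vehicle livers and 8, 4 and 11 in normal diet livers. Here too the B-LGND2 livers were above the rest (log2 fold change 2.23, SE 0.49, edgeR adjusted p = 0.0193). Cyba also rose (log2 fold change 1.63, SE 0.41, edgeR adjusted p = 0.0335).

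Of 9 lysosomal, granule and endosomal genes, 2 rose, Laptm5 and Lyz2, and the median log2 fold change of the 8 tested was 1.05. Laptm5 (chr4:130913125-130936141, plus strand), a lysosomal membrane protein of blood cells, had 82.0, 41.4 and 52.8 CPM in B-LGND2 livers, against 23.2, 17.1 and 19.2 CPM in high fat vehicle livers and 20.9, 21.3 and 17.6 CPM in normal diet livers. The B-LGND2 livers were all above the vehicle livers, which overlapped each other (log2 fold change 1.56, SE 0.26, edgeR adjusted p = 0.00502). Lyz2 (chr10:117277331-117282321, minus strand) encodes the lysozyme of macrophages, which cuts bacterial cell walls, and measured 77.4, 78.6 and 147 CPM in B-LGND2 livers, against 20.9, 19.1 and 34.01 CPM in high fat vehicle livers and 31.5, 34.4 and 83.4 CPM in normal diet livers. It rose against high fat vehicle (log2 fold change 2.03, SE 0.38, edgeR adjusted p = 0.0107), but normal diet replicate 3 reached the range of the B-LGND2 livers. The near-identical paralog Lyz1 had 2 counts in all 9 libraries together. Lgals3, which encodes the carbohydrate-binding galectin 3, was at 7.18, 3.97 and 8.49 CPM in B-LGND2 livers, against 3.46, 0.902 and 2.51 CPM in high fat vehicle livers and 2.18, 1.99 and 3.87 CPM in normal diet livers. Its B-LGND2 livers did not overlap with the vehicle livers, and it did not pass the test (log2 fold change 1.51, SE 0.47, edgeR adjusted p = 0.0663).

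Mpeg1 (chr19:12460779-12465283, plus strand) encodes perforin 2, a pore-forming protein of the macrophage endosome, and was measured at 67.9, 88.4 and 80.8 CPM in B-LGND2 livers, against 67.0, 63.9 and 62.7 CPM in high fat vehicle livers and 42.9, 46.1 and 46.2 CPM in normal diet livers. The 3 groups did not overlap, with B-LGND2 highest and the normal diet lowest, though the lowest B-LGND2 liver nearly met the highest high fat vehicle liver. The step with B-LGND2 on the high fat diet did not pass the test (log2 fold change 0.29, SE 0.20, edgeR adjusted p = 0.385), nor did the step with diet (log2 fold change 0.52, SE 0.20, edgeR adjusted p = 0.140), while the comparison of B-LGND2 livers with normal diet livers did (log2 fold change 0.81, SE 0.20, edgeR adjusted p = 0.0386). The other lysosomal genes had log2 fold changes with B-LGND2 of 1.10 (edgeR adjusted p = 0.0729) for Cd68, a scavenger receptor family glycoprotein, and 0.99 (edgeR adjusted p = 0.107) for the metal transporter Slc11a1. That of Ctsc, the protease cathepsin C, was 0.58 (edgeR adjusted p = 0.156), and that of Unc93b1, the chaperone of endosomal Toll-like receptors, was 0.19 (edgeR adjusted p = 0.705).

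Among genes of transcription, signalling and the leukocyte cytoskeleton, 1 of 5 rose. This was Spi1 (chr2:91082390-91115756, plus strand), the gene of PU.1, with 10.1, 5.74 and 8.33 CPM in B-LGND2 livers, against 1.48, 2.10 and 2.93 CPM in high fat vehicle livers and 2.65, 2.48 and 2.21 CPM in normal diet livers. The 3 B-LGND2 livers stood above the 6 vehicle livers, the lowest of which rests on 9 counts (log2 fold change 1.87, SE 0.37, edgeR adjusted p = 0.0131). Aif1, the gene of the actin-bundling protein used as a macrophage and microglia stain, had 5.68, 3.53 and 3.83 CPM in B-LGND2 livers, against 1.15, 1.65 and 1.81 CPM in high fat vehicle livers and 1.40, 1.65 and 2.63 CPM in normal diet livers. It did not pass the test, though its B-LGND2 livers were the highest 3 (log2 fold change 1.49, SE 0.43, edgeR adjusted p = 0.0539). Coro1a, an actin-binding protein of leukocytes, was at 2.67, 3.53 and 3.66 CPM in B-LGND2 livers, against 1.65, 2.56 and 0.976 CPM in high fat vehicle livers and 2.81, 1.32 and 2.08 CPM in normal diet livers. It did not pass either (log2 fold change 0.92, SE 0.47, edgeR adjusted p = 0.244). Lyn, a kinase that phosphorylates ITAMs, had a log2 fold change of 0.09 (edgeR adjusted p = 0.865), and Lcp1, the leukocyte plastin, one of -0.26 (edgeR adjusted p = 0.530), the only value below 0 among the 32.

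The pan-leukocyte membrane genes gave 1 rise among 5 listed and 3 tested. Cd52 (chr4:134082448-134095082, minus strand), a short surface glycopeptide of leukocytes, had 7.07, 8.97 and 10.5 CPM in B-LGND2 livers, against 2.80, 1.504 and 3.21 CPM in high fat vehicle livers and 4.21, 5.62 and 10.1 CPM in normal diet livers. It rose with B-LGND2 against high fat vehicle (log2 fold change 1.80, SE 0.40, edgeR adjusted p = 0.0193), with normal diet livers in between and overlapping the B-LGND2 livers. Its exons share 172 bases with Crybg2 on the opposite strand. Ptprc, the gene of the common leukocyte antigen CD45, was at 5.79, 4.86 and 14.3 CPM in B-LGND2 livers, against 4.12, 3.31 and 3.90 CPM in high fat vehicle livers and 4.83, 2.98 and 5.26 CPM in normal diet livers. Replicate 3 of the B-LGND2 group was far above the other 2, and the gene did not pass the test (log2 fold change 1.12, SE 0.41, edgeR adjusted p = 0.109). Cd53, a tetraspanin of leukocytes, had 2.32, 3.24 and 5.83 CPM in B-LGND2 livers, against 1.81, 1.96 and 3.07 CPM in high fat vehicle livers and 4.68, 2.31 and 3.18 CPM in normal diet livers. Its groups overlapped (log2 fold change 0.70, SE 0.45, edgeR adjusted p = 0.359).

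Monocyte genes were near the limit of what these libraries count. Cx3cr1, the fractalkine receptor, was the tested one of 3 and had 16, 12 and 9 counts in B-LGND2 livers, against 4, 8 and 2 in high fat vehicle livers and 11, 3 and 0 in normal diet livers (log2 fold change 1.25, SE 0.78, edgeR adjusted p = 0.339). Ccr2, the chemokine receptor of inflammatory monocytes, had 2, 11 and 3 counts in B-LGND2 livers, against 7, 3 and 5 in high fat vehicle livers and 2, 8 and 4 in normal diet livers. Ly6c2, their usual surface marker, had 1, 5 and 5 counts in B-LGND2 livers, against 0, 0 and 5 in high fat vehicle livers and 1, 1 and 1 in normal diet livers. Both overlapped between the groups and were not tested; a count of 0 allows up to 3 counts. Of the other untested genes, Itgam, the alpha chain of the complement receptor integrin, had 11, 11 and 6 counts in B-LGND2 livers, against 2, 6 and 5 in high fat vehicle livers and 1, 2 and 2 in normal diet livers. Scaled to CPM its B-LGND2 livers lay above the others, by little for replicate 3 (0.999 CPM, against 0.902 CPM in high fat vehicle replicate 2), and its exons share 3450 bases with the gene model Gm49368 on the same strand. Exons of Coro1a, Lcp1, Lyn, Cx3cr1 and Ms4a6c overlap those of other gene models on the opposite strand, by 26 to 1088 bases a pair.

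The lipid-sensing receptor gene Trem2, a marker of macrophages in fatty and fibrotic tissue, had 5, 6 and 5 counts in B-LGND2 livers, against 0, 2 and 8 in high fat vehicle livers and 1, 3 and 4 in normal diet livers. Gpnmb, a glycoprotein gene of lipid-laden macrophages, had 3, 2 and 3 counts in B-LGND2 livers, against 3, 2 and 0 in high fat vehicle livers and 0, 1 and 0 in normal diet livers. For both, the B-LGND2 livers overlapped the high fat vehicle livers, and scaled to CPM they lay above all 3 normal diet livers. The membrane-spanning Ms4a7 had 2, 1 and 0 counts in B-LGND2 livers, against 0, 4 and 0 in high fat vehicle livers and 1, 1 and 0 in normal diet livers; its counts overlapped between groups. Its relative Ms4a6c had 3, 1 and 6 counts in B-LGND2 livers, against 3, 1 and 0 in high fat vehicle livers and 1, 1 and 4 in normal diet livers. No difference in these genes was detectable at this depth, and none of the 7 untested genes passed when the filter was removed.

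Per kilobase of transcript, the level of the genes spanned a wide range. In B-LGND2 livers the highest mean was that of Lyz2 at 76.8 CPM per kb, followed by Tyrobp at 40.0, Fcer1g at 32.2, Ctsc at 27.1 and Laptm5 at 22.6 CPM per kb. In high fat vehicle livers Lyz2 was again highest at 18.8 CPM per kb, followed by Ctsc at 18.1, Lcp1 at 17.1, Mpeg1 at 14.9 and Tyrobp at 12.7 CPM per kb. In both groups Ms4a7 was at or near the bottom. The plot of levels per kb shows Fcer1g and Laptm5 further up the order in B-LGND2 livers than in high fat vehicle livers.

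**Figure D3:**
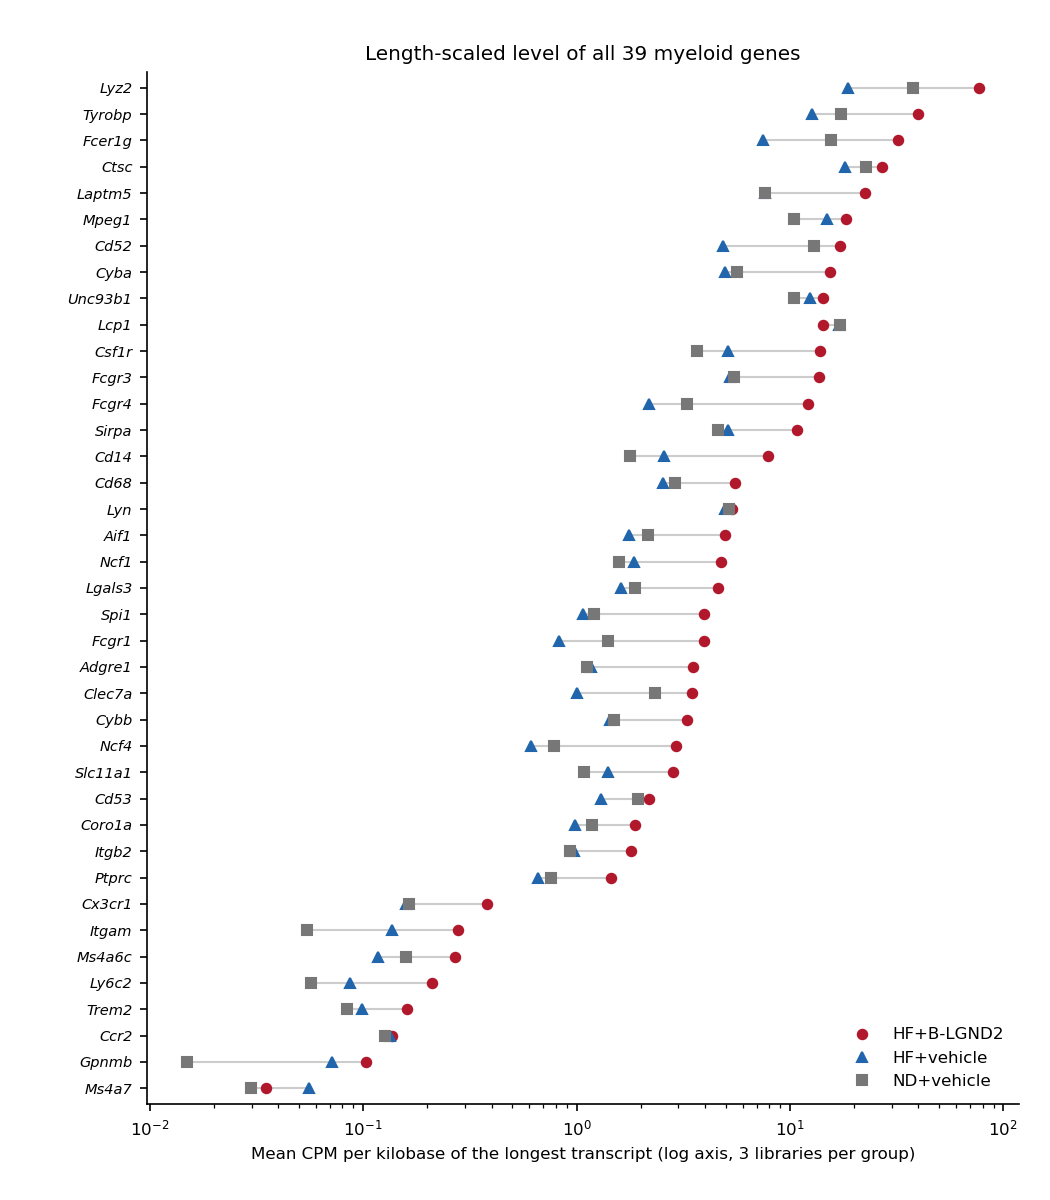
Mean level of each of the 39 genes in CPM per kb of its longest transcript (log axis), by group, in descending order of the level in B-LGND2 livers. Lyz2 heads the order in B-LGND2 livers at 76.8 CPM per kb, and the genes that were not tested lie at the bottom.

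High fat feeding by itself, compared with the normal diet under vehicle, moved none of the 39 genes past the threshold, where 2.99% of all tested genes were called, 1.5% higher and 1.49% lower. An unadjusted p under 0.05 was found for 5 of the 32 (15.6%), against 22.4% of all tested genes. Among the 39, limma-voom called 0, with 2.56% of all genes called, and DESeq2's Wald test called 2, Cd52 and Fcer1g, both lower on the high fat diet, with 8.13% of all genes called. Of the 32, 9 had a log2 fold change above 0, against 50.4% of all tested genes, and the median was -0.16, against 0.01 over all tested genes. That median was 0.01 without scaling between libraries, a setting in which the median of all genes was 0.17. Mpeg1 did not overlap between diets and was higher on the high fat diet, where 15.4% of all genes behaved so; Cd52 and Fcer1g did not overlap and were lower, as were 14.8% of all genes.

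Fcer1g was at 4.62, 4.06 and 6.69 CPM in high fat vehicle livers, against 8.42, 10.1 and 13.3 CPM in normal diet livers (log2 fold change -1.04, SE 0.29, edgeR adjusted p = 0.0573). Cd52 was at 2.80, 1.504 and 3.21 CPM in high fat vehicle livers, against 4.21, 5.62 and 10.1 CPM in normal diet livers (log2 fold change -1.41, SE 0.40, edgeR adjusted p = 0.0655). Both were lower on the high fat diet in every liver, but neither passed the test. All 6 tested Fc receptor and adaptor genes had a log2 fold change below 0, with a median of -0.66, and all 5 tested surface receptor genes had one above 0, with a median of 0.16. Within the normal diet group, replicate 3, the library with the strongest preference for short transcripts, was the highest of 3 for Lyz2 (83.4 against 31.5 and 34.4 CPM), Tyrobp (16.7 against 5.62 and 8.77 CPM) and Cyba (7.88 against 2.18 and 2.48 CPM). The part of that preference in the diet comparison was not tested beyond the fit with length and GC corrections, which called 0 of the 39 genes and 2.11% of all genes. Without normal diet replicate 1, 3 genes were called lower, Cd52, Fcer1g and Lyz2, in a fit that called 15% of all genes.

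Against vehicle on the normal diet, B-LGND2 on the high fat diet gave 13 of the 39 genes higher and none lower, where 1.59% of all tested genes rose and 1.33% fell. This comparison changes diet and compound together, and shares its livers with the other 2. The median log2 fold change of the 32 tested genes was 1.19, against -0.01 over all tested genes, and in 20 every B-LGND2 liver lay above every normal diet liver, against 10.5% of all tested genes. The log2 fold change was above 0 for 31 of the 32, against 49.5% of all tested genes. The 13 included all 4 surface receptors that rose against high fat vehicle: Csf1r (log2 fold change 1.92, SE 0.27, edgeR adjusted p = 0.00113), Cd14 (log2 fold change 2.15, SE 0.35, edgeR adjusted p = 0.00467), Sirpa (log2 fold change 1.24, SE 0.24, edgeR adjusted p = 0.0133) and Adgre1 (log2 fold change 1.64, SE 0.36, edgeR adjusted p = 0.0250). For Ncf1, Laptm5 and Spi1 the log2 fold changes were 1.59, 1.56 and 1.72.

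Fcer1g rose in this comparison too, with a log2 fold change of 1.05 (edgeR adjusted p = 0.0450), against 2.09 within the high fat diet. Fcgr4, Fcgr3, Ncf4 and Cybb rose with log2 fold changes of 1.86, 1.31, 1.88 and 1.14, Ncf4 again under the reservation given for the filter. Of the 9 fits with 1 library left out, Fcgr4 kept its call in 7 and Cybb in 2. Fcgr3 and Fcer1g kept theirs in 1 fit each, and Ncf4 in 0. Of the 17 genes that rose against high fat vehicle, 5 did not pass here: Fcgr1 at 1.48 (edgeR adjusted p = 0.0504), Cyba at 1.44 (edgeR adjusted p = 0.0682), Tyrobp at 1.19 (edgeR adjusted p = 0.0956), Lyz2 at 1.02 (edgeR adjusted p = 0.149) and Cd52 at 0.40 (edgeR adjusted p = 0.587). Mpeg1 passed only here, and the differences between the comparisons were not tested. When the fit held only the 2 groups compared, 7 genes rose, with 1.23% of all genes called, and 5 to 11 did so when 1 library was left out, with 0.888% to 5.16% called; Csf1r, Cd14, Sirpa, Ncf1 and Laptm5 rose under every setting.

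Within the high fat groups, 1 library was the highest for most of the genes. B-LGND2 replicate 3 was the highest of its group for 22 of the 32 tested genes, against 31.9% of all tested genes, and the lowest for 1. High fat vehicle replicate 3 was the highest of its group for 20 of 32, against 34.1% of all tested genes. In the normal diet group replicate 3 was highest for 15 and lowest for 10 of 32, against 38.4% and 39.1% of all tested genes. Without B-LGND2 replicate 3 the median log2 fold change of the 32 genes against high fat vehicle was 1.25, the lowest value with any library left out.

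Markers of other cell types were counted beside these genes. The 14 Kupffer cell identity genes summed to 1438 to 1740 CPM in B-LGND2 livers, against 528.5 to 651.8 CPM in high fat vehicle livers and 630.7 to 924.9 CPM in normal diet livers, and 9 of them rose with B-LGND2, led by Cd5l (log2 fold change 2.17, edgeR adjusted p = 0.000189), C1qa (log2 fold change 2.19, edgeR adjusted p = 0.000504) and C1qb (log2 fold change 1.89, edgeR adjusted p = 0.00139), a scavenger protein and 2 complement components of tissue macrophages. A further list of 65 macrophage and myeloid genes had 53 tested, 9 higher and 1 lower, with a median log2 fold change of 1.10. By diet, 0 of the 13 tested Kupffer cell genes and 0 of these 53 were called, and against the normal diet 8 and 6 rose in B-LGND2 livers. Among these, Rac2, the small GTPase that the NADPH oxidase needs, had 10.9, 18.2 and 15.3 CPM in B-LGND2 livers, against 4.29, 3.91 and 4.04 CPM in high fat vehicle livers and 7.17, 4.96 and 6.64 CPM in normal diet livers. It rose, with the B-LGND2 livers above all others (log2 fold change 1.85, SE 0.30, edgeR adjusted p = 0.00397). The lysosomal thiol reductase Ifi30 also rose against high fat vehicle (log2 fold change 1.14, SE 0.27, edgeR adjusted p = 0.0257).

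Lymphocyte genes were scarce. The 14 T cell genes summed to 7.07 to 12.7 CPM in B-LGND2 livers, against 5.44 to 6.17 CPM in high fat vehicle livers and 4.13 to 6.92 CPM in normal diet livers; 6 had at most 3 counts in every library, and neither of the 2 tested was called. The 9 NK cell genes, none of which had enough counts to be tested, summed to 3.71 to 4.12 CPM in B-LGND2 livers, against 1.53 to 2.11 CPM in high fat vehicle livers and 1.49 to 3.18 CPM in normal diet livers. B cell and plasma cell genes summed to 23.0 to 34.8 CPM in B-LGND2 livers, against 16.8 to 20.6 CPM in high fat vehicle livers and 23.8 to 30.3 CPM in normal diet livers, with 0 of 3 called. In the neutrophil list 3 of 15 genes, Ly6g, Mpo and Ltf, had no count in any library, and 1 of 3 tested rose, Prtn3, the gene of proteinase 3 (log2 fold change 5.37, SE 0.56, edgeR adjusted p = 0.000102). Prtn3 had 34.2, 45.9 and 22.1 CPM in B-LGND2 livers, against 1.15, 0.752 and 0.557 CPM in high fat vehicle livers and 0.936, 0.661 and 4.43 CPM in normal diet livers. Most of the neutrophil sum was the acute-phase gene Lcn2, at 69.3 to 380.8 CPM in B-LGND2 livers, against 37.5 to 408.3 CPM in high fat vehicle livers and 17.6 to 447.9 CPM in normal diet livers. Without Lcn2, set aside after its values were seen, the other 14 genes summed to 33.1 to 57.4 CPM in B-LGND2 livers, against 3.91 to 5.72 CPM in high fat vehicle livers and 3.43 to 16.2 CPM in normal diet livers. Most of that sum in each B-LGND2 liver was Prtn3 alone, so it does not show a rise across the list. S100a9, also tested, overlapped between groups, at 3.01, 5.15 and 8.16 CPM in B-LGND2 livers. It had 2.64, 1.81 and 3.21 CPM in high fat vehicle livers and 0.936, 2.65 and 8.99 CPM in normal diet livers.

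The endothelial list summed to 342.8 to 408.2 CPM in B-LGND2 livers, against 234.0 to 298.7 CPM in high fat vehicle livers and 249.8 to 298.2 CPM in normal diet livers, and 1 of 12 genes rose, the growth factor receptor Kdr (log2 fold change 0.91, edgeR adjusted p = 0.0417). Stellate cell genes summed to 162.9 to 265.4 CPM in B-LGND2 livers, against 154.0 to 179.1 CPM in high fat vehicle livers, with 0 of 10 called. Of 3 tested dendritic cell genes 1 rose, Bst2 (log2 fold change 1.08, edgeR adjusted p = 0.0375). Clec9a and Zbtb46 had log2 fold changes below 0, of -1.29 and -0.07, and were not called (edgeR adjusted p = 0.182 and 0.903). Of 3 tested cholangiocyte genes 1 rose, Spp1 (log2 fold change 0.95, edgeR adjusted p = 0.0227). None of 5 erythroid genes was called, and 2 of 12 hepatocyte genes rose, the apolipoproteins Apoa1 and Apoc3. The part of these cell types in the levels of the 39 genes was not tested.

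**Figure D4:**
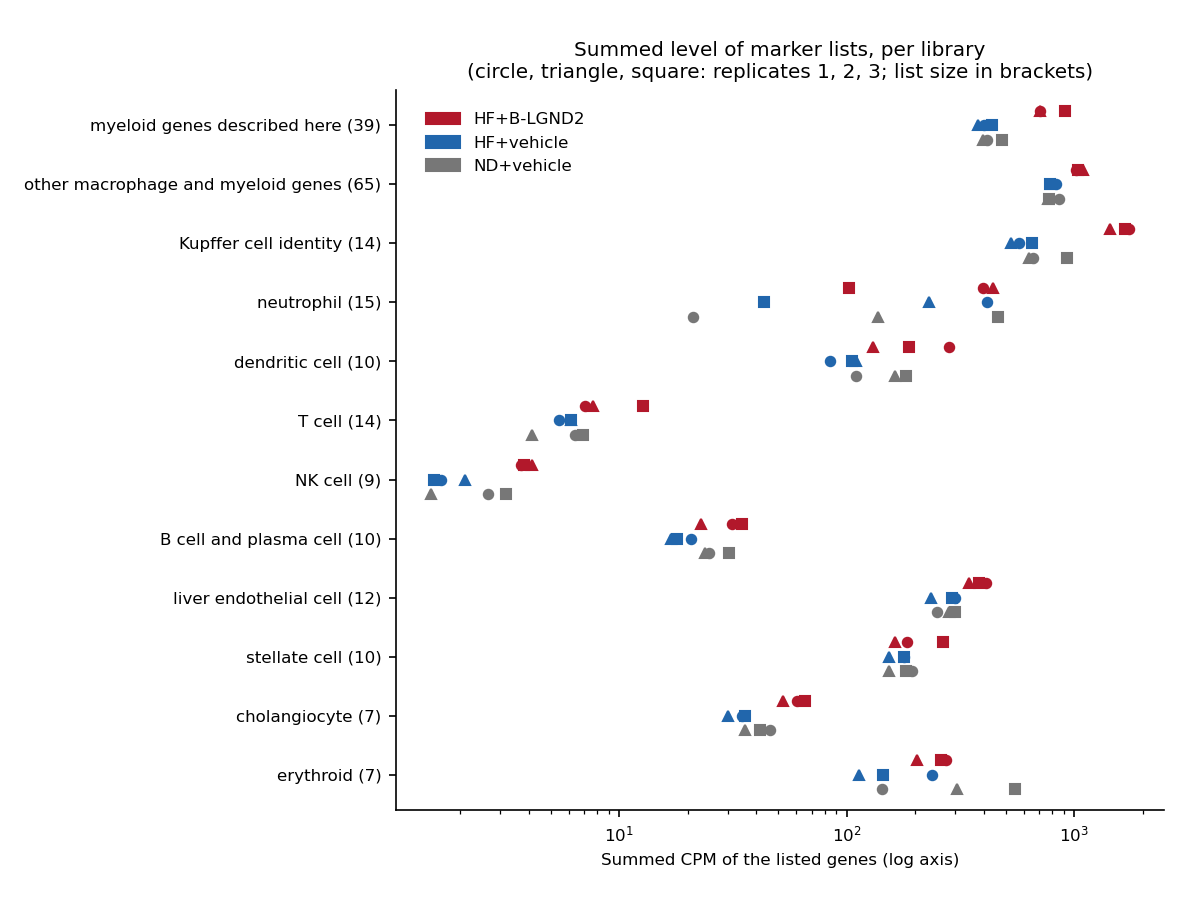
Summed CPM (log axis) of each marker list in each of the 9 livers; colours are the groups, symbols the replicates, and brackets give the number of genes listed. All 3 B-LGND2 livers lie above all 6 vehicle livers for the 39 genes, the other macrophage genes and the Kupffer cell list. The same holds for the T cell, NK cell, endothelial and cholangiocyte lists. For the dendritic cell list and the B cell and plasma cell list, B-LGND2 livers lie above high fat vehicle livers but overlap normal diet livers. For the other lists shown, B-LGND2 livers overlap high fat vehicle livers. The sums do not show that a whole list rose. Spp1 alone, at 41.7, 41.2 and 55.6 CPM, was most of the cholangiocyte sums of 60.5, 52.2 and 65.3 CPM in B-LGND2 livers. Bst2 alone, at 267.5, 118.9 and 175.2 CPM, was most of the dendritic cell sums of 280.5, 130.2 and 187.2 CPM there. The T cell sums nearly met, at 7.07 CPM in the lowest B-LGND2 liver and 6.92 CPM in the highest vehicle liver.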

How the data were processed

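Poly(A)-enriched RNA of whole liver was sequenced as barcoded libraries on an Ion Torrent Proton, per the labels' protocols. The authors deposited 1 table of raw read counts per gene for 9 libraries. The submitters' processing notes name HTSeq 0.6.1p1, TopHat2 2.0.13, DESeq2 1.6.3, Bowtie2 2.2.4, SAMtools 0.1.19 and the build GRCm38.p3; which annotation release, strand setting and assignment mode were used is not stated there. Columns were tied to libraries by their names. Symbols, coordinates, lengths and GC content came from GENCODE M21 on GRCm38 (44585 of 45513 gene IDs matched), and promoters from RefSeq.

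Genes were kept with filterByExpr (minimum count 10; 12102 kept), scaled by TMM and fitted over all 9 libraries with edgeR 4.0.16 (R 4.3.3) and its robust quasi-likelihood test, with 6 residual degrees of freedom and no covariate. P-values were adjusted by Benjamini-Hochberg over all tested genes in each of 3 comparisons, with a threshold of 0.05. CPM values use TMM library sizes, and CPM per kb divides by the longest transcript. All pairs of replicates differed beyond counting noise (chi-square per degree of freedom at least 12.6). An exact two-sided permutation test of 3 against 3 cannot go below 0.1, so none is given.

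Alternatives were other scalings, filters and tests (DESeq2 1.42.0, limma 3.58.1), length and GC offsets, a replicate block, the compared groups alone, and each library left out. The 39 genes, their role groups and the marker lists were chosen with earlier results of these data known. Values per library are given for the up to 3 genes of each role group with the smallest p in B-LGND2 against vehicle, for genes called in another comparison and for untested genes; of other lists, the up to 3 genes with the smallest p and paralogs of listed genes are named. Other genes named, such as overlapping genes, Ly6g, Mpo and Ltf, were chosen after their values were seen. Counts are of amplified reads without molecular identifiers, so the floor of a count of 0 covers counting error only. One gene of the further macrophage and myeloid list is counted but not reported by name here.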

Additional observations from a re-analysis of the deposited data

How the results depend on the processing

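In the comparison of high fat B-LGND2 with high fat vehicle livers, 15 of the 17 genes that rose kept their call in each of the 10 alternatives with all libraries in which they were tested (Sirpa and Cybb lost it without scaling; a filter of 50 counts in 3 libraries left Ncf4 and Spi1 untested), and 3 kept it with any library left out. With 1 library left out, 4 to 21 of the 39 genes were called, and the median log2 fold change of the tested ones ran from 1.25 to 1.57. For high fat B-LGND2 against normal diet livers, 7 genes were called with only the compared groups in the fit and 5 to 11 with 1 library left out, and the median ran from 1.01 to 1.48. For high fat against normal diet, 3 genes were called with no filter, 2 by DESeq2 and 0 to 3 with 1 library left out; the median was 0.0129 without scaling, -0.0509 with no filter, -0.0496 with the filter of 50 counts, and -0.249 to -0.0562 with 1 library left out. No value reversed by the rule used (a called value changing sign); where not stated, the cause was not tested. Over all genes, the 681 calls of B-LGND2 against vehicle were 1345 with no filter, 1123 by DESeq2, 1420 with the compared groups alone and 100 to 1439 with 1 library left out. The 362 calls by diet were 1182, 984, 153 and 35 to 1860, and 203 with the replicate block; the 354 of the combined comparison were 751, 660, 144 and 111 to 639. Without scaling, the share of calls that were higher was 31.1% with B-LGND2 (54.5% as reported) and 72.6% by diet (50.3% as reported); limma-voom gave 60.7% by diet. The levels gave no clear sign that replicate numbers pair the livers. Deviations of same-numbered livers correlated at -0.19 to 0.12, over 0.1 in 1 of 9 pairs, and 3 of 9 livers correlated best with their own number. Weak correlations of levels cannot show that the livers were unpaired. A fit with the replicate block called 19, 0 and 12 of the 39 genes in the 3 comparisons, with 4.07%, 1.68% and 2.09% of all genes called.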
